A study of Mus musculus with 2 samples.

Results

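The MHC class II genes were followed in single-cell RNA sequencing of mouse liver. The 7 genes are H2-Aa, H2-Ab1, H2-Eb1, H2-DMa, H2-DMb1, Cd74 and Ciita, taken by symbol from the 32285 genes that each library lists, and each symbol matched 1 row. They were read in macrophage, monocyte, dendritic, B, endothelial and hepatocyte barcodes of a wild-type (WT) library and of a library from mice lacking miR-33 in hepatocytes (HKO), where loxP-flanked miR-33 is cut by a Cre recombinase driven by the albumin promoter. Both groups were littermates kept on CD-HFD, a high-fat diet without choline, for 6 months from 8 weeks of age, so no library of a normal diet was compared. Each library pooled the cells of 3 livers, with hepatocytes and sorted living non-parenchymal cells combined in equal parts. With 1 library per genotype there was no replicate, so no p-value is given and each difference is one between these libraries.

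MHC class II molecules show peptides from the endosomes of a cell to CD4 T cells. An alpha and a beta chain, H2-Aa with H2-Ab1 for I-A and the beta chain H2-Eb1 for I-E, form the peptide groove, the invariant chain Cd74 fills it and guides the complex to endosomes, and the dimer of H2-DMa and H2-DMb1 exchanges the last piece of Cd74 for a peptide. Ciita is the coactivator that switches these genes on through factors bound at the X, X2 and Y boxes before their starts. Dendritic cells, B cells and macrophages are the usual carriers, liver sinusoidal endothelium carries low amounts, and mouse T cells lack class II, so T and NK barcodes served here as a background.

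The boxes could be read in the promoters of several of these genes. The windows from RefSeq (GRCm38) run from 250 bases before to 50 bases after a gene's start. Of 11 class II genes looked for, 8 had a window, among them the 4 members H2-Aa, H2-Eb1, H2-DMb1 and H2-DMa. Both strands were searched for AACNGATG (core of the X box), TGACGTCA (core of the X2 box) and TGATTGG (Y box). The X core occurred in 2.32%, the X2 core in 1.79% and the Y box in 7.82% of 32851 windows, and an X or X2 core together with a Y box in 0.332%. That pair was found in 5 class II genes, of which 4 are shown here because Ciita is known to act through these boxes, with the X or X2 core and the Y box in capitals and each sequence 5′ to 3′ along its gene.
H2-Aa (chr17:34287837-34287927, minus strand): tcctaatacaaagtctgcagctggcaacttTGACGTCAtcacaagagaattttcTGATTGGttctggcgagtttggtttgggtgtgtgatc
H2-Eb1 (chr17:34305748-34305842, plus strand): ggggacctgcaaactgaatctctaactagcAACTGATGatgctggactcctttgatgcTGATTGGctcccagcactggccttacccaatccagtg
H2-DMb2 (chr17:34145098-34145193, plus strand): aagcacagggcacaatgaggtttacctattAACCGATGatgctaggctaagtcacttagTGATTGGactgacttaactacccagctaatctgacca
H2-Eb2 (chr17:34325515-34325609, plus strand): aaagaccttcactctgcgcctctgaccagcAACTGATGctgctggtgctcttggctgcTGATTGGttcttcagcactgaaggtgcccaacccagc

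The fifth gene is H2-DMb1, whose X core and Y box lie within the span that GENCODE gives the gene. In the 4 genes with an X core, 20 or 21 bases lie between it and the Y box, and in H2-Aa 16 bases lie between the X2 core and the Y box. The Y box begins 50 bases before the RefSeq start of H2-Aa and 61 before that of H2-Eb1, where GENCODE places the same starts. It begins 63 before the RefSeq start of H2-DMb1, which lies downstream of the GENCODE start. H2-Oa and H2-Ob held a Y box without either core, and the windows of H2-DMa held none of these letters. A match of letters is a description of the window and says nothing of binding in these livers.

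Apart from Ciita and Cd74, the members lie close together on chromosome 17 (GRCm38, GENCODE M21). H2-DMa spans chr17:34119541-34139101, H2-DMb1 chr17:34153072-34160230, H2-Ab1 chr17:34257689-34269419 and H2-Eb1 chr17:34305867-34316674, all on the plus strand. H2-Aa spans chr17:34282744-34287823 on the minus strand, and Ciita lies at chr16:10480059-10528418 on the plus strand. H2-DMa overlaps 3094 bases of Brd2, a gene of the opposite strand, and H2-Eb1 overlaps 2204 bases of the antisense gene Gm20513. How the counting treated strand is not given in the sources used here.

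The libraries differed in depth. The WT library held 30078 barcodes with 130451427 UMIs (unique molecules, each counted once) and a median of 2658 UMIs per barcode, and the HKO library held 20000 barcodes with 52563185 UMIs and a median of 1130. After filters and removal of likely doublets, 22601 WT and 15583 HKO barcodes were kept, of which 20012 and 10108 carried hepatocyte transcripts at the depth of free RNA and were read as background. Clusters were named from marker genes, with class II genes left out of both the markers and the clustering. Barcodes shared between the libraries were not counted here.

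The classes were small. The dendritic-like class held 11 WT and 51 HKO barcodes, the B-like class 32 and 160, the macrophage-like class 131 and 230, and the monocyte-like class 23 and 45. Endothelial-like barcodes numbered 201 and 326, hepatocyte-like 1828 and 3525, and T and NK-like 225 and 729. Their median depths were 9670 and 4235 UMIs in dendritic-like, 4861 and 1833 in B-like, 3350 and 1683 in macrophage-like, 7379 and 3581 in monocyte-like, 6768 and 3206 in endothelial-like, and 20633 and 4267 in hepatocyte-like barcodes. Levels are therefore given as UMIs summed over a class over all UMIs of that class, as counts per 1000000 (CPM), with an exact 95% Poisson interval that covers counting error only.

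Dendritic-like barcodes carried the most class II RNA in both libraries. Summed over the 6 genes other than the regulator Ciita, their level was 18945 CPM (18163–19752) in WT against 15350 CPM (14885–15825) in HKO. In WT the monocyte-like barcodes followed at 8360 CPM (7968–8766), then B-like at 4318 CPM (4018–4634) and macrophage-like at 3925 CPM (3776–4079), and the intervals of these last classes overlapped. In HKO macrophage-like barcodes were second at 8886 CPM (8693–9081), ahead of monocyte-like at 7287 CPM (6910–7680) and B-like at 6967 CPM (6687–7256), whose intervals overlapped. Endothelial-like barcodes held 154.1 CPM (138–171.6) in WT against 83.14 CPM (69.41–98.78) in HKO, and hepatocyte-like barcodes 32.23 CPM (30.64–33.89) and 31.64 CPM (29.47–33.92). The T and NK-like background lay between or beside them at 69.57 CPM (55.49–86.13) and 67.9 CPM (56.25–81.25), so endothelial-like barcodes stood above it in WT, overlapped it in HKO, and hepatocyte-like barcodes lay below it in both. Without the highest barcode of each library the WT endothelial-like level was 76.15 CPM, within the interval of the background. The background was itself uneven, from 26.66 CPM in cluster n1 to 319.9 CPM in cluster n8 of HKO, and at 169.9 CPM (111–248.9) in cluster n13 of WT. With classes set by marker detection in place of clusters the WT monocyte-like level was 230.6 CPM (6 barcodes), behind B-like at 4519 CPM and macrophage-like at 1392 CPM. With barcodes weighted equally the HKO monocyte-like level was 6008 CPM and the macrophage-like 5985 CPM, and at Leiden resolution 0.5, where no cluster was monocyte-like, macrophage-like barcodes were second in both libraries.

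**Figure D1:**
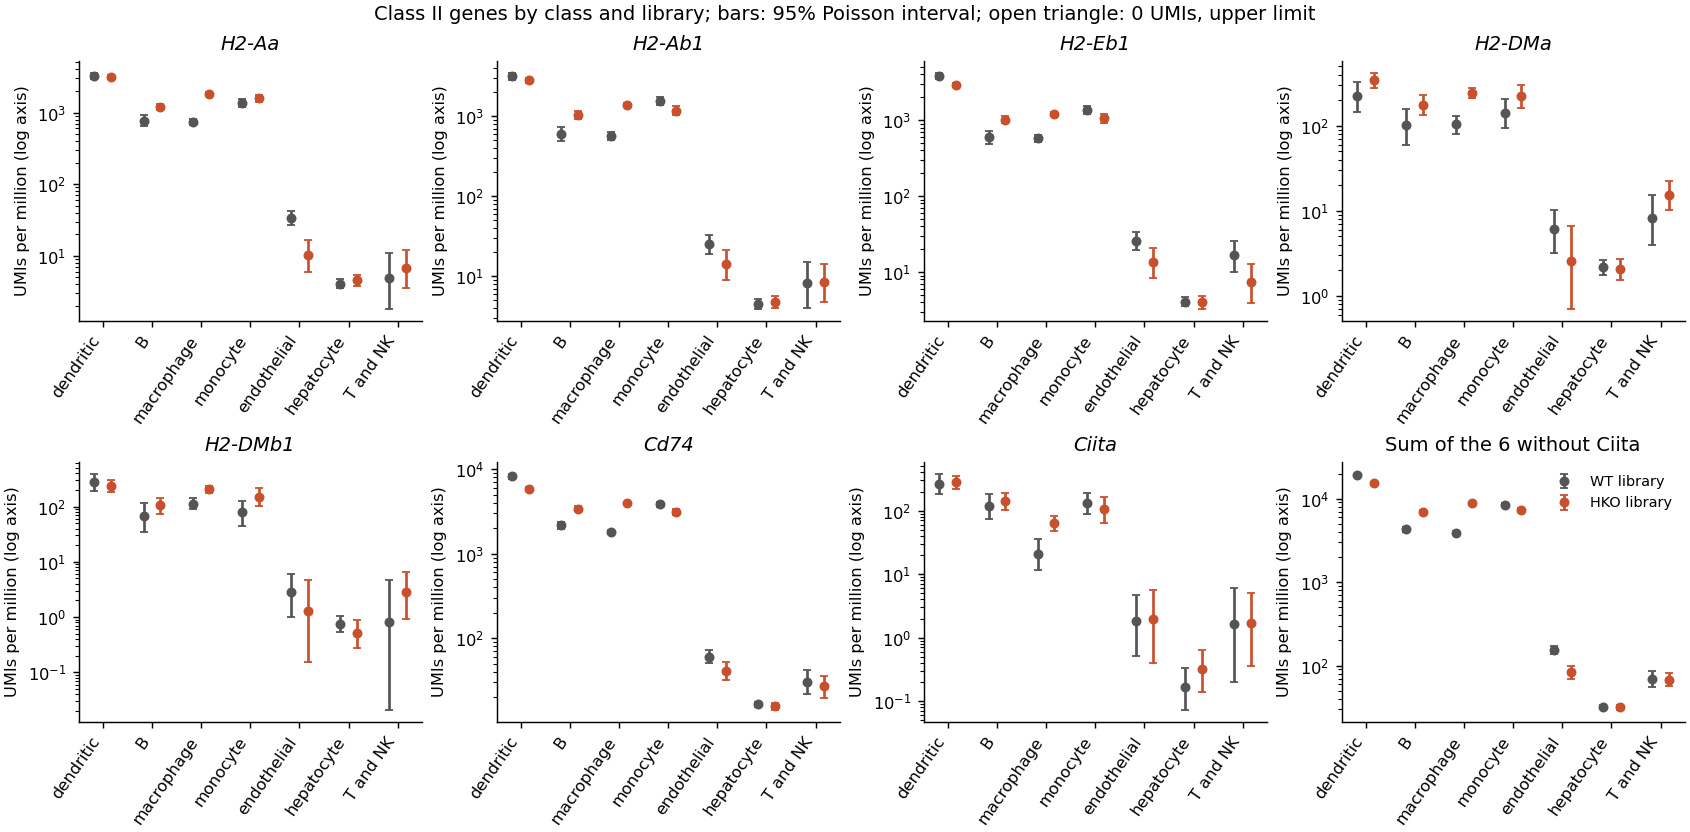
Level of each of the 7 class II genes (CPM, log axis) in the 6 cell classes and the T and NK-like background, by library, with exact 95% Poisson intervals for counting error as bars. The dendritic-like points lie highest, and for the summed genes fall from 18945 CPM in WT dendritic-like barcodes to 31.64 CPM in HKO hepatocyte-like barcodes.

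Macrophage-like barcodes held more class II RNA in the HKO library. There the summed level was 3925 CPM in WT against 8886 CPM in HKO, a ratio of 2.26 (exact 95% interval 2.17–2.37). H2-Aa, the I-A alpha chain, stood at 735.5 CPM in WT against 1829 CPM in HKO, a ratio of 2.49 (2.25–2.76). Its partner H2-Ab1 stood at 568.9 and 1385 CPM (ratio 2.44), and the I-E beta chain H2-Eb1 at 577.9 and 1214 CPM (ratio 2.10). These 3 chains, of I-A and I-E, were thus each past 2-fold higher in the HKO library. The invariant chain Cd74 stood at 1827 and 4010 CPM (ratio 2.20, 2.06–2.34). Of the peptide exchangers, H2-DMa stood at 103.6 and 243.1 CPM (ratio 2.35) and H2-DMb1 at 112.6 and 204.8 CPM (ratio 1.82). Ciita rested on 14 and 58 UMIs, 21.01 and 63.52 CPM, with a ratio of 3.02 (1.67–5.87). So 6 of 7 members were past 2-fold higher in HKO and none past 2-fold lower, where 13.4% of the 9777 genes tested in this class were past 2-fold higher and 10.5% past 2-fold lower. The middle of the 7 ratios was that of H2-DMa, 2.35, and the median log2 ratio over all genes tested in the class was 0.13.

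**Figure D2:**
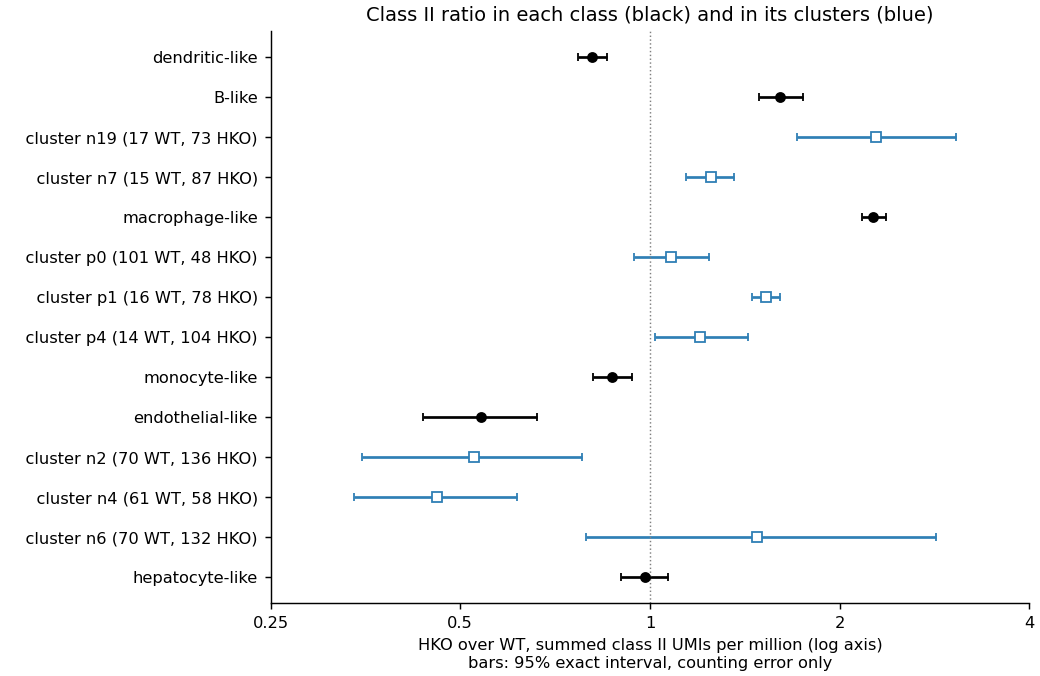
HKO over WT ratio (log axis) of the summed class II UMIs (6 genes) in each class and in clusters of a class, with exact 95% intervals for counting error. The macrophage-like ratio is 2.26, with 1.08 in cluster p0, 1.53 in p1 and 1.20 in p4, and the hepatocyte-like ratio is 0.982.

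The makeup of the class differed between the libraries. The macrophage-like barcodes fell into 3 clusters. Cluster p0 held 77.1% of the WT and 20.9% of the HKO macrophage-like barcodes, and there the summed level was 1686 CPM in WT against 1822 CPM in HKO, a ratio of 1.08 (0.942–1.24) whose interval includes 1. Cluster p4, with 10.7% and 45.2% of the barcodes, stood at 3438 and 4130 CPM (ratio 1.20, 1.02–1.43). Cluster p1, with 12.2% and 33.9%, stood at 7909 and 12064 CPM (ratio 1.53, 1.45–1.61) and carried 67.9% of the WT and 89.0% of the HKO class II UMIs of the class. All 3 within-cluster ratios of the sum were below the pooled one. Of the single members with at least 10 UMIs in a cluster, none was past 2-fold in p0 or p1. In p4 only H2-DMa was (ratio 2.93, 1.03–11.5, 4 and 30 UMIs). With each cluster weighted equally, an alternative chosen after the data were seen, the summed ratio was 1.38, and with mixed endothelial and phagocyte clusters counted as macrophage-like, also chosen then, it was 1.42. Those mixed clusters also carried stellate markers such as Dcn and Lrat. With classes set by marker detection in place of clusters (153 WT and 190 HKO barcodes) the summed ratio was 6.90.

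Marker levels moved with the class II level across these clusters. The 14 macrophage markers summed to 2787 CPM in WT against 4028 CPM in HKO in cluster p0, to 5314 and 5504 CPM in cluster p4, and to 19189 and 22646 CPM in cluster p1. Over the whole class they summed to 8520 CPM in WT against 16459 CPM in HKO, with 14 of 14 detected in both, while the 8 hepatocyte markers summed to 47716 and 20588 CPM. Per 100 UMIs of the macrophage markers, there were 46.1 class II UMIs in WT against 54.0 in HKO, a ratio of 1.17. The 14 dendritic markers, 9 of which were detected in WT and 10 in HKO, summed to 145.6 and 340.6 CPM. The plasma cell markers summed to 28.52 CPM in WT against 326.4 CPM in HKO and the monocyte markers to 541.9 against 856.5 CPM, and immunoglobulin genes such as Ighg1 led cluster p1. The part of marker level, hepatocyte RNA and transcripts of these other cell types in the pooled ratio was not tested.

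Within the macrophage-like class the class II RNA was uneven from barcode to barcode. At least 1 UMI of the 6 genes was seen in 109 of 131 WT barcodes (83.2%) and 200 of 230 HKO barcodes (87.0%), with medians of 4 and 6 UMIs and highest values of 263 and 383. UMIs of H2-Aa, H2-Ab1, H2-Eb1 and Cd74 together were found in 34 WT (26.0%) and 93 HKO barcodes (40.4%). Thinned to 1000 UMIs per barcode, to set the depths equal, the share with any class II UMI was 60% of 130 barcodes in WT and 80.9% of 183 in HKO, with 1 WT and 47 HKO barcodes left out as shallower. Class II genes made up a median of 0.114% of a barcode's UMIs in WT and 0.357% in HKO.

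**Figure D3:**
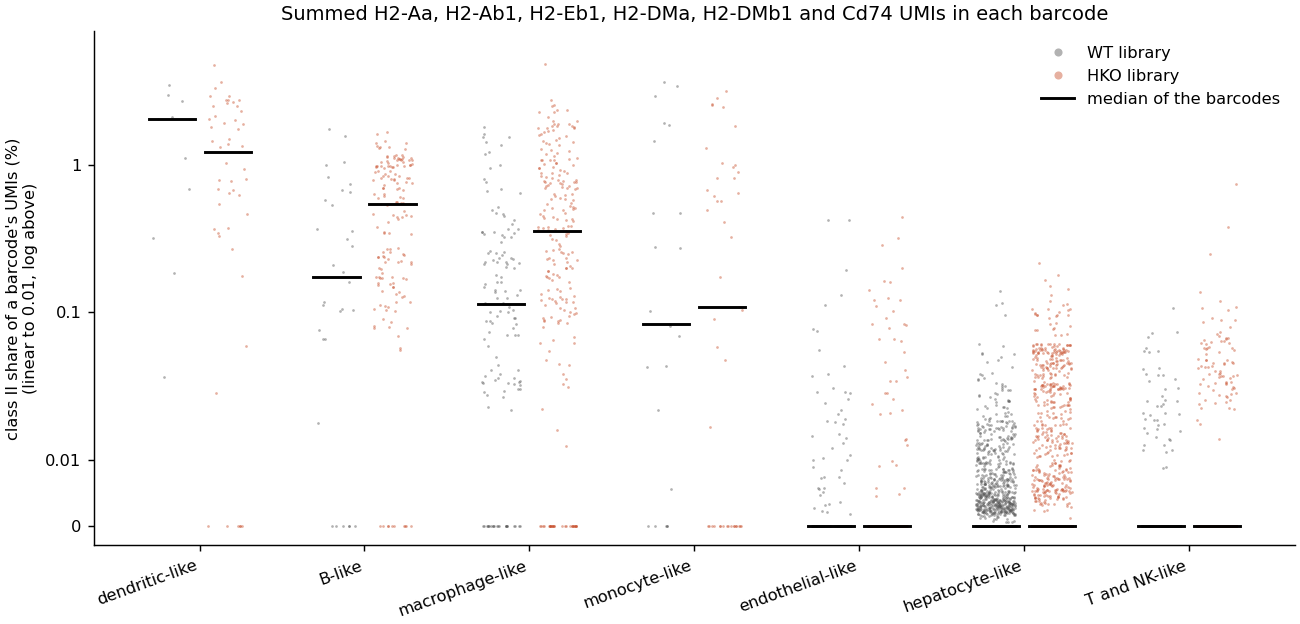
Class II UMIs (sum of 6 genes) as a percent of each barcode's UMIs, by class and library, 1 point per barcode, with the median marked. The WT dendritic-like barcodes have a median of 2.03%, the WT macrophage-like 0.114% and the HKO macrophage-like 0.357%, and the barcodes of each class spread widely.

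In B-like barcodes the levels were also higher in the HKO library, by less than in macrophage-like barcodes as classed here. The summed level was 4318 CPM in WT against 6967 CPM in HKO, a ratio of 1.61 (1.49–1.75). That is above the macrophage-like ratio found with the mixed endothelial and phagocyte clusters counted as macrophage-like. H2-Aa stood at 772.9 and 1205 CPM (ratio 1.56, 1.28–1.91), H2-Ab1 at 604.8 and 1037 CPM (ratio 1.71) and H2-Eb1 at 599.2 and 1019 CPM (ratio 1.70). Cd74 stood at 2173 and 3425 CPM (ratio 1.58, 1.40–1.77), close to the chains it escorts. H2-DMa, at 100.8 and 176.4 CPM, had a ratio of 1.75 on 18 and 59 UMIs, and H2-DMb1, at 67.2 and 104.6 CPM, one of 1.56 on 12 and 35 UMIs. Ciita stood at 117.6 and 140.5 CPM, a ratio of 1.19 (0.70–2.10) that cannot be told from 1 at 21 and 47 UMIs. No member was past 2-fold in either direction, where 15.4% of the 6649 genes tested were past 2-fold higher and 11.1% lower.

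Marker levels differed in B-like barcodes too. The hepatocyte markers summed to 40155 CPM in WT and to 21148 in HKO, and the stellate and cholangiocyte markers each to 56 and 17.93 CPM. Endothelial markers summed to 235.2 CPM in WT and 538 in HKO, dendritic markers to 397.6 and 564.9 CPM and macrophage markers to 44.8 and 92.66 CPM. T markers summed to 5.6 and 119.6 CPM (1 and 40 UMIs), and the part of these transcripts was not tested. The 10 B markers summed to 7068 CPM in WT against 11445 CPM in HKO, and per 100 of their UMIs class II UMIs numbered 61.1 and 60.9. Of the 2 B-like clusters, n7 stood at 7288 and 9088 CPM (ratio 1.25, 1.14–1.36) and n19 at 817.5 and 1864 CPM (ratio 2.28, 1.71–3.06). Of 32 WT barcodes 26 (81.2%) had a class II UMI, as did 150 of 160 in HKO (93.8%), and all of H2-Aa, H2-Ab1, H2-Eb1 and Cd74 in the same share of each, 46.9%. A single WT barcode held 191 of the 771 class II UMIs of its class, and without the highest barcode of each library the ratio was 1.93.

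Dendritic-like barcodes went the other way by a small amount. The summed ratio was 0.81 (0.769–0.854), with H2-Aa at 3236 CPM in WT against 3170 CPM in HKO (ratio 0.98), H2-Ab1 at 3150 and 2810 CPM (ratio 0.892) and H2-Eb1 at 3820 and 2918 CPM (ratio 0.764, 0.679–0.86). Cd74 had the lowest ratio, 0.713 (0.658–0.773), at 8241 and 5876 CPM. H2-DMa stood at 223.2 and 341.9 CPM, a ratio of 1.53 (0.982–2.47), and H2-DMb1 at 274.7 and 234.1 CPM, a ratio of 0.852 (0.549–1.35). Ciita stood at 266.1 and 282.5 CPM, a ratio of 1.06 (0.691–1.67) on 31 and 76 UMIs. No member was past 2-fold, where 13.2% of 5905 genes were past 2-fold higher in HKO and 10.8% lower. With classes set by marker detection (6 WT and 22 HKO barcodes) the summed ratio turned to 1.85.

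These values rest on 11 WT barcodes, of which 1 held 659 of the 2207 class II UMIs. Class II UMIs were present in 11 of 11 WT barcodes, from 4 to 659 with a median of 196, and in 45 of 51 HKO barcodes, with a median of 63 and a highest value of 253. All of H2-Aa, H2-Ab1, H2-Eb1 and Cd74 were found in 10 WT (90.9%) and 37 HKO barcodes (72.5%). These counts are given without thinning, at median depths of 9670 UMIs in WT and 4235 in HKO. The 14 dendritic markers summed to 2721 CPM in WT against 2256 CPM in HKO, which left 696 and 680 class II UMIs per 100 marker UMIs. The defining markers Fscn1, Clec10a and Mgl2 were at 0 in WT and Mgl2 in HKO. Macrophage markers summed to 120.2 CPM in WT, with 4 of 14 detected, and to 1379 CPM in HKO, with 13 of 14, and B markers to 360.5 and 33.45 CPM. Endothelial markers summed to 171.7 CPM (5 of 12) and 984.9 CPM (12 of 12) and hepatocyte markers to 20379 and 11823 CPM, and the part of these transcripts was not tested.

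In monocyte-like barcodes the members' ratios lay on both sides of 1. H2-Aa stood at 1362 CPM in WT against 1580 CPM in HKO (ratio 1.16, 0.983–1.37), whereas H2-Ab1, its partner, stood at 1567 and 1182 CPM (ratio 0.754, 0.633–0.897) and H2-Eb1 at 1362 and 1057 CPM (ratio 0.776, 0.644–0.934). Cd74 stood at 3849 and 3092 CPM (ratio 0.803, 0.721–0.895). H2-DMa stood at 142 and 224.9 CPM (ratio 1.58, 0.966–2.63) and H2-DMb1 at 78.36 and 151.7 CPM (ratio 1.94, 1.02–3.82). Ciita stood at 132.2 and 104.6 CPM (ratio 0.791, 0.421–1.46). No member was past 2-fold, where 8.64% of 6017 genes were past 2-fold higher and 13.8% lower.

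The summed monocyte-like ratio, 0.872 (0.812–0.936), turned on 1 barcode. That WT barcode held 505 of 1707 class II UMIs (29.6%), against 358 in the next, and UMIs of 8 of the 14 dendritic markers. The next barcode was kept, so values without the highest barcode still rest in part on it. Without the highest barcode of each library the ratio was 1.12. H2-Ab1 then had a ratio of 1.01, H2-Eb1 of 0.967 and Cd74 of 0.987, so their lower HKO levels were lost, while H2-Aa had one of 1.66, H2-DMa of 2.13 and H2-DMb1 of 2.36. With classes set by marker detection (6 WT and 24 HKO barcodes) it was 21.5. Class II UMIs were missing from 21.7% of the WT monocyte-like barcodes and from 37.8% of the HKO ones, and the medians were 6 and 5 class II UMIs. These shares are given without thinning, at median depths of 7379 UMIs in WT and 3581 in HKO. The monocyte markers summed to 2184 CPM in WT against 4452 CPM in HKO, and class II UMIs per 100 marker UMIs numbered 383 and 164. The hepatocyte markers summed to 24498 CPM in WT and 12555 in HKO, the macrophage markers to 2086 and 3134 CPM and the neutrophil markers to 83.26 and 371.4 CPM, and their part was not tested.

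Endothelial-like barcodes held little class II RNA, and the summed difference in CPM between the libraries was lost without 1 barcode. The summed ratio was 0.54 (0.437–0.663). H2-Aa stood at 33.88 CPM in WT against 10.31 CPM in HKO (ratio 0.304, 0.165–0.528, 73 and 16 UMIs), and H2-DMa at 6.034 and 2.578 CPM (13 and 4 UMIs, ratio 0.427, 0.101–1.38). H2-Ab1 stood at 25.53 and 14.18 CPM (ratio 0.555), H2-Eb1 at 25.53 and 13.53 CPM (ratio 0.53) and Cd74 at 60.34 and 41.25 CPM (ratio 0.684, 0.499–0.929). H2-DMb1, at 6 and 2 UMIs, and Ciita, at 4 and 3 UMIs, were too sparse to compare. Of the 5 members with at least 10 UMIs, 2 were past 2-fold lower in HKO and none higher, where 4.00% of 11386 genes were past 2-fold lower and 6.19% higher. One of these, H2-DMa, has an interval that includes 1.

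A single WT endothelial-like barcode, with 40283 UMIs in all, held 171 of the 332 class II UMIs (51.5%), against 51 in the next. It carried UMIs of 7 of 14 dendritic markers, 0 macrophage markers and 2 of 12 endothelial markers. Without the highest barcode of each library the summed ratio was 0.958, and with at most 20% mitochondrial UMIs it was 0.254. Without the highest barcodes H2-Aa had a ratio of 0.292, H2-DMa one of 0.689, no longer past 2-fold, and those of H2-Ab1 (1.31), H2-Eb1 (1.20) and Cd74 (1.12) lay above 1. The 12 endothelial markers summed to 3453 CPM in WT and 5751 in HKO, hepatocyte markers to 58234 and 44973 CPM and erythroid markers to 47.8 and 487.2 CPM, and their part was not tested. With all barcodes, class II UMIs per 100 endothelial marker UMIs numbered 4.46 and 1.45. Any class II UMI was found in 50 of 201 WT (24.9%) and 43 of 326 HKO barcodes (13.2%), which after thinning to 1000 UMIs became 4.5% of 200 and 5.42% of 277 deep enough to thin. The T and NK-like background, thinned in the same way, gave 5.86% and 4.82%, so at equal depth the endothelial-like share lay at the background. By cluster, the summed ratio was 0.46 (0.339–0.616) in n4, which held that barcode, 0.525 (0.349–0.779) in n2 on 77 and 40 UMIs, and 1.48 (0.792–2.84) in n6 on 17 and 31 UMIs.

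In hepatocyte-like barcodes, where miR-33 is deleted, the summed ratio was 0.982 (0.90–1.07), an interval that includes 1. The depth minimum of this class was 5140 UMIs in WT and 1626 in HKO. The ratio was 0.843 with at least 5000 UMIs per barcode in both libraries and 1.28 with barcodes weighted equally. Barcodes of free RNA depth held more class II RNA, 61.54 CPM in WT against 76.55 CPM in HKO. H2-Aa stood at 4.113 CPM in WT against 4.548 CPM in HKO, H2-Ab1 at 4.514 and 4.787 CPM, and H2-Eb1 at 4.092 and 4.029 CPM. Cd74 stood at 16.58 and 15.68 CPM, a ratio of 0.946 (0.836–1.07), H2-DMa at 2.173 and 2.075 CPM and H2-DMb1 at 0.7594 and 0.5186 CPM. Ciita was seen in 8 UMIs in each library. No member was past 2-fold, where 4.19% of 15415 genes were past 2-fold higher and 4.98% lower.

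Class II UMIs in hepatocyte-like barcodes were at or below the level of the T and NK-like background. They were found in 630 WT (34.5%) and 493 HKO barcodes (14.0%), but after thinning to 1000 UMIs in 3.17% (2.42–4.08) and 3.49% (2.91–4.15), which overlaps the thinned T and NK-like share of 5.86% (3.15–9.81) and 4.82% (3.34–6.71). These shares do not separate the hepatocytes' own transcripts from free RNA. A scaling of free RNA by albumin gives no expectation here, since hepatocytes make albumin themselves. In endothelial-like barcodes that scaling gave 115 class II UMIs in WT and 80.8 in HKO, where 332 and 129 were seen. In the T and NK-like background it gave 39.3 and 43.5, where 84 and 119 were seen, so that background also lay above scaled free RNA.

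H2-DMa took a different proportion of the class II UMIs from class to class. It made up 1.18% to 3.09% of the class II UMIs in dendritic-like, B-like, macrophage-like and monocyte-like barcodes and 2.5% in WT and 2.63% in HKO barcodes of free RNA depth. In hepatocyte-like barcodes its share was 6.74% (5.54–8.12) in WT and 6.56% (4.94–8.51) in HKO. In endothelial-like barcodes it was 3.92% (2.1–6.6) and 3.10% (0.851–7.75), intervals that include the share in free RNA. In T and NK-like barcodes it was 11.9% (5.86–20.8) in WT and 22.7% (15.5–31.3) in HKO, on 10 of 84 and 27 of 119 UMIs. The exact binomial intervals of hepatocyte-like and T and NK-like barcodes lie above the share in free RNA. H2-DMb1, with which H2-DMa forms its dimer, made up 2.36% and 1.64% of the class II UMIs in hepatocyte-like and 1.19% and 4.2% in T and NK-like barcodes.

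**Figure D4:**
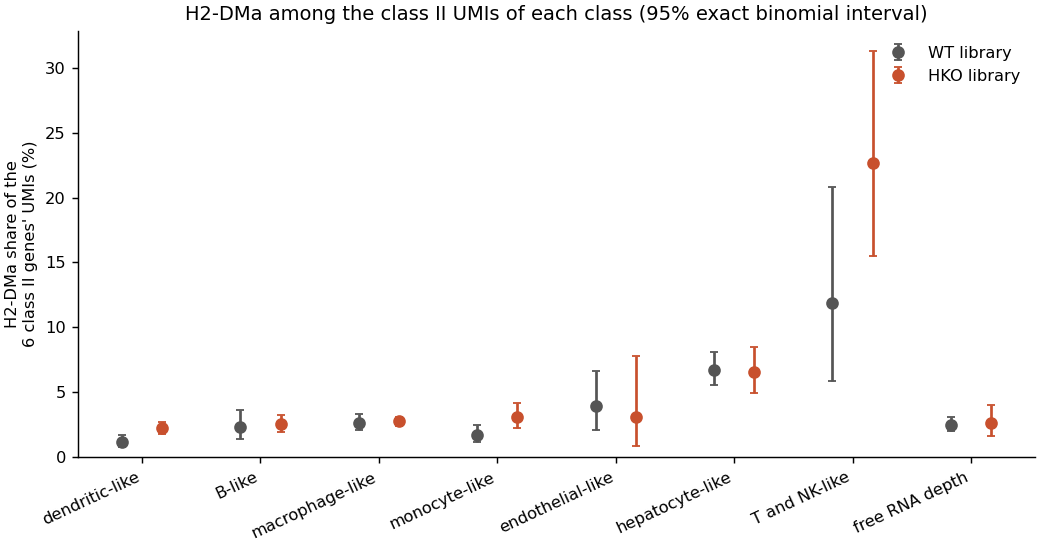
H2-DMa as a percent of the class II UMIs (sum of 6 genes) by class and library, with exact 95% binomial intervals. T and NK-like barcodes stand highest, at 11.9% in WT and 22.7% in HKO, hepatocyte-like barcodes at 6.74% and 6.56%, and barcodes of free RNA depth at 2.5% and 2.63%.

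Free RNA scaled by albumin would bring 0.984 H2-DMa UMIs to the WT and 1.15 to the HKO T and NK-like barcodes, where 10 and 27 were seen and where the scaling takes all their albumin as free RNA. Hepatocyte-like barcodes held 103 and 52 H2-DMa UMIs. Brd2, the opposite-strand neighbour that overlaps H2-DMa, stood at 53.83 CPM in WT against 50.23 CPM in HKO hepatocyte-like barcodes and at 86.13 and 84.45 CPM in T and NK-like barcodes, against 85.56 and 81.05 CPM in macrophage-like ones. Whether reads of Brd2 entered the H2-DMa count was not tested.

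Ciita was sparse. Of its 138 UMIs in kept WT barcodes, 22.5% lay in dendritic-like, 19.6% in monocyte-like, 15.2% in B-like and 10.1% in macrophage-like barcodes. Of 313 in HKO, 24.3% lay in dendritic-like, 18.5% in macrophage-like, 15% in B-like and 6.39% in monocyte-like barcodes. Barcodes of free RNA depth held 15.2% in WT and 4.15% in HKO, the mixed endothelial and phagocyte clusters 6.52% and 11.5%, and the mixed T and NK and phagocyte cluster 0% and 13.1%. Among barcodes with a Ciita UMI, H2-Ab1 was also seen in 7 of 7 WT and 28 of 30 HKO dendritic-like, in 6 of 7 and 31 of 33 macrophage-like, and in 8 of 12 and 7 of 8 monocyte-like barcodes. In B-like barcodes it was seen in 11 of 13 in WT and 25 of 40 in HKO. Deep barcodes are more likely to show both, so these counts are a description.

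Cd74 (chr18:60803848-60812652, plus strand) made up between 38.3% and 51.4% of the class II UMIs over the 6 classes and both libraries. Its share differed between classes by more than counting error. In dendritic-like barcodes it was 43.5% (41.4–45.6) in WT and 38.3% (36.8–39.8) in HKO. It was 49.2% (47.1–51.2) in HKO B-like and 51.4% (48.9–54) in WT hepatocyte-like barcodes. The counts are of 3′ ends and were not divided by length, so this proportion compares classes with each other and not the amounts of different genes. Over the whole libraries as deposited, Cd74 gave 8426 UMIs in WT and 13940 in HKO, H2-Aa 3248 and 6435, H2-Ab1 2751 and 5025, and H2-Eb1 2694 and 4702. H2-DMa gave 471 and 836 UMIs, H2-DMb1 359 and 670, and Ciita 154 and 326. The sum of 6 came to 137.6 CPM in WT against 601.3 CPM in HKO, over all cell types at once.

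Where the class II RNA of a library sat also differed. Macrophage-like barcodes held 16.1% of the 16291 class II UMIs of the kept WT barcodes and 26.7% of the 30435 of HKO, dendritic-like 13.5% and 13.6%, monocyte-like 10.5% and 4.58%, and B-like 4.73% and 7.66%. Barcodes of free RNA depth held 19.4% in WT and 2.5% in HKO, and hepatocyte-like barcodes 9.38% and 2.61%. Clusters with markers of both endothelial cells and phagocytes held 18.0% and 22.2%, and a cluster with markers of both T and NK cells and phagocytes held 4.49% and 16.5%. A mixed name does not list every lineage found. The endothelial and phagocyte clusters also carried stellate markers, and the T and NK and phagocyte cluster endothelial ones. These mixed clusters, which can hold doublets, were left out of the named classes.

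**Figure D5:**
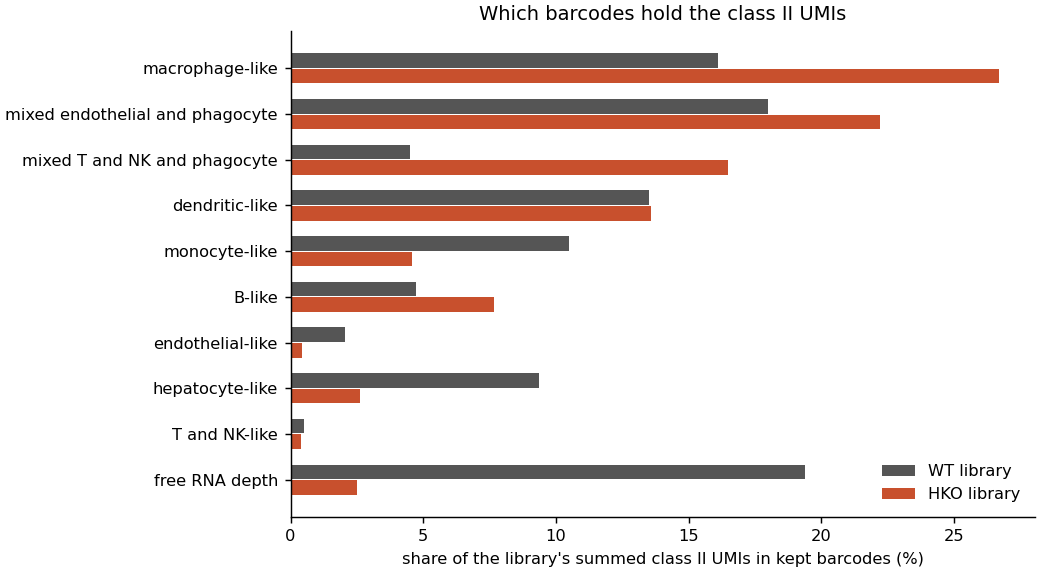
Percent of each library's class II UMIs (sum of 6 genes, kept barcodes) by the class of barcode that held them. Macrophage-like barcodes held 16.1% in WT and 26.7% in HKO, and barcodes of free RNA depth 19.4% and 2.5%.

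Other class II chains were found mainly in B-like and dendritic-like barcodes. H2-DMb2 is a second DM beta chain, H2-Oa and H2-Ob form the DO dimer that holds DM back, and H2-Eb2 is a further beta chain. In macrophage-like and monocyte-like barcodes each had at most 6 UMIs in either library. In B-like barcodes 2 of these 4 genes were past 2-fold higher in HKO, H2-DMb2 at 72.81 CPM in WT against 176.4 CPM in HKO (ratio 2.42, 1.31–4.81) and H2-Oa at 33.6 and 101.6 CPM (ratio 3.02, 1.26–8.81), where 15.4% of all genes tested were past 2-fold higher and the B markers summed to 7068 CPM in WT against 11445 CPM in HKO. In dendritic-like barcodes H2-Oa stood at 180.3 and 92.92 CPM (ratio 0.515, 0.277–0.968), and H2-Eb2 was past 2-fold higher on 2 and 10 UMIs. H2-DMb2 and H2-Eb2 are near copies of members, so reads may be split between them.

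Genes that prepare peptides and the invariant chain were read next to the members in macrophage-like barcodes. Ifi30, a thiol reductase of endosomes, stood at 210.1 CPM in WT against 570.6 CPM in HKO (ratio 2.72). Ctss, the protease that trims Cd74 in antigen-presenting cells, stood at 716 and 1300 CPM (ratio 1.82), and the endosomal protease Lgmn at 1087 and 1898 CPM (ratio 1.75). Ctsl, a further cathepsin, stood at 421.8 and 310 CPM (ratio 0.735). So 1 of these 5 genes was past 2-fold higher in HKO and none lower, against 13.4% and 10.5% of all genes tested in the class.

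Upstream of Ciita, 2 of 7 genes of the interferon gamma pathway were past 2-fold higher in HKO macrophage-like barcodes and none lower, again against 13.4% and 10.5% of all genes tested. These were the transcription factors Irf1, at 64.54 CPM in WT against 165.4 CPM in HKO (ratio 2.56), and Irf8, at 108.1 and 232.2 CPM (ratio 2.15). Of 7 factors that bind the X, X2 and Y boxes, Nfyc was past 2-fold higher (ratio 2.41, 1.16–5.48, 10 and 33 UMIs). Rfxank (ratio 0.417, 0.0895–1.64, 7 and 4 UMIs) and Nfya (ratio 0.469, 0.179–1.16, 14 and 9 UMIs) were past 2-fold lower, with intervals that include 1. Of 5 genes of costimulation and class II turnover, 3 were past 2-fold higher where 13.4% of all genes were, the costimulators Cd80 (ratio 2.85), Cd86 (267.2 and 611.1 CPM, ratio 2.29) and Cd40 (ratio 2.43). Marchf1, the ubiquitin ligase that removes class II from the surface, had a ratio of 1.90. The class I genes H2-K1 (ratio 0.952), H2-D1 (ratio 1.43) and B2m (ratio 0.70) stayed within 2-fold. These ratios were pooled over the macrophage-like clusters, whose shares differed between the libraries, and were not computed within clusters.

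On the receiving side, Cd4 stood at 35.61 CPM in WT against 37.66 CPM in HKO T and NK-like barcodes. Lag3, an inhibitory receptor for class II, stood at 9.11 and 36.52 CPM (ratio 4.01, 2.10–8.43, 11 and 64 UMIs). The T and NK-like clusters were filled unevenly, cluster n20 with 12 WT and 112 HKO barcodes and cluster n8 with 39 and 44. The 10 T markers summed to 3606 CPM in WT against 5359 CPM in HKO and the hepatocyte markers to 39458 against 20929 CPM, and their part was not tested.

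Other genes followed a similar pattern over the classes. Over 18 profiles (named classes in each library) and 13693 genes, the genes with levels most like the mean of H2-Aa, H2-Ab1, H2-Eb1 and Cd74 were Fgd2 (Pearson r = 0.964 on log2(CPM + 10)), Rp2 (0.951), Ly86 (0.951), Cd180 (0.947), Pkib (0.945), Rassf4 (0.933), Gm20513 (0.927), Ctss (0.924), Ifi30 (0.920) and Cd83 (0.920). The 4 genes of that mean correlated with it at 0.993 to 0.998, which is no result, since they are part of it. Of the members outside the mean, H2-DMa had an r of 0.979, Ciita of 0.964 and H2-DMb1 of 0.930. Gm20513 lies antisense to H2-Eb1, and within the 2204 bases they share its reads cannot be told apart from those of H2-Eb1 where strand was not used. The profiles of 1 library share its depth and free RNA, so these correlations are a description.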

How the data were processed

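Single-cell 3′ RNA libraries were read from the UMI counts that the authors deposited, 1 matrix per genotype, made with Cell Ranger (version 7.1.0 by the matrix header, mm10) with Seurat 3 and R 3.0 named in the submitters' processing notes. The counts are not normalized. The counting options and the annotation release were not given in the sources used here. The authors' own cell labels were not used here.

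The filters kept barcodes of 500 UMIs and 300 genes or more and of no more than 50% mitochondrial UMIs. Scrublet marked no barcode by its automatic threshold, so the top-scoring barcodes were left out at 0.8% per 1000 barcodes (23.7% of WT, 14.6% of HKO). With scanpy 1.11.5 (Python 3.11.15, scipy 1.17.1), clusters came from 3 rounds of Leiden clustering (2000 variable genes, 30 components, 15 neighbours, resolution 1.0) without class II genes, and were named from marker lists with at least 3 markers found in 10% of barcodes and 2-fold above the rest. The rule for mixed clusters was set after cluster markers, but not class II levels, had been seen. A hepatocyte-like barcode needed 2 times the depth that was commonest among all barcodes of its library that passed the filters. This minimum was 5140 UMIs in WT and 1626 in HKO.

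Levels are UMIs summed over a class as a rate of all its UMIs (CPM), with exact Poisson, Clopper-Pearson and conditional 95% intervals. These cover counting error only, not the spread between mice. Past 2-fold was counted among genes with at least 10 UMIs over both libraries. The ratio and its interval were checked on simulated counts. All 7 members were named, with pathway genes from fixed lists and the 10 genes most alike in pattern among those with at least 50 UMIs. The members and lists were chosen with earlier results of these data known. Promoter windows are from RefSeq. The symbols Marchf1 and Marchf8 were matched to their older names.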

Additional observations from a re-analysis of the deposited data

Results flagged for a closer look

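Class II RNA stood far above the T and NK-like background (69.57 CPM in WT, 67.9 CPM in HKO) in clusters that carried markers of more than 1 lineage and were left out of the named classes. In barcodes of the clusters named mixed endothelial and phagocyte the sum of 6 genes was 5220 CPM in WT (30 barcodes) and 4816 CPM in HKO (122 barcodes). These clusters also carried stellate markers such as Dcn, Lrat and Reln, and S100a8 and S100a9 were among the leading genes of cluster p7. In barcodes with T and NK and phagocyte markers, which also carried endothelial markers, the sum was 4125 CPM in WT (7 barcodes) and 10635 CPM in HKO (38 barcodes). Their median depths were high, 18329 and 10923 UMIs for the former and 23631 and 9975 UMIs for the latter. Whether they are doublets was not tested beyond the doublet score.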

How the results depend on the processing

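Over 13 settings that allowed an order of the classes, dendritic-like barcodes were first in 26 of 26 orders, and of the HKO over WT ratios of the sum of 6 genes 51 moved beyond their counting interval and 30 did not. The macrophage-like ratio, past 2-fold as reported, stayed above 1 under every alternative run, while those of the other 5 classes crossed 1 under at least 1 of them. Of 537 values of single members under an alternative, 472 kept their direction. The macrophage-like ratio was 2.92 with doublets kept, 2.62 with at least 1000 UMIs, 1.52 with class II genes kept in the clustering, 1.90 and 2.11 at Leiden resolutions 0.5 and 2.0, 6.90 with classes set by marker detection, 2.40 with barcodes weighted equally, 2.39 without the highest barcode, and 2.62 thinned to 1000 UMIs. The B-like ratio was 1.76 with at least 1000 UMIs, 1.85 at resolution 2.0, 1.47 by marker detection and 1.93 without the highest barcode. The dendritic-like ratio was 0.97 and 0.964 at resolutions 0.5 and 2.0, 1.85 by marker detection (6 WT and 22 HKO barcodes), 0.856 weighted equally, 0.909 without the highest barcode and 0.86 thinned. The monocyte-like ratio was 0.964 with doublets kept, 0.988 with at most 20% mitochondrial UMIs, 0.78 at resolution 2.0, 21.5 by marker detection (6 and 24 barcodes), 0.808 weighted equally, 1.12 without the highest barcode and 0.773 thinned, and no cluster was monocyte-like at resolution 0.5. The endothelial-like ratio was 0.254 with at most 20% mitochondrial UMIs, 0.431 and 0.834 at the resolutions 0.5 and 2.0, 0.958 by marker detection, 1.00 weighted equally, 0.958 without the highest barcode, 1.01 thinned and 0.309 after subtraction of free RNA. The hepatocyte-like ratio was 0.886 with at least 1000 UMIs, 1.28 weighted equally, 1.12 thinned and 0.843 with at least 5000 UMIs, and free RNA subtraction, which also takes the hepatocytes' own albumin as free RNA, left less than 0. Alternatives chosen after the data were seen gave 1.35 (B-like), 1.38 (macrophage-like) and 0.668 (endothelial-like) with clusters weighted equally, 1.42 with the mixed endothelial and phagocyte barcodes counted as macrophage-like, 2.02 (B-like), 2.51 (macrophage-like) and 0.966 (monocyte-like) without barcodes under 2000 UMIs, and, per UMI of the class's own markers, 0.977 (dendritic-like), 0.996 (B-like), 1.17 (macrophage-like), 0.428 (monocyte-like), 0.324 (endothelial-like) and 1.14 (hepatocyte-like). The cause was not tested. No paired analysis was possible because there was 1 library per genotype. Ciita and H2-DMb1 had under 10 UMIs in endothelial-like barcodes and were not compared there.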
